A study of Arabidopsis thaliana with 16 samples.

Results

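The genes described here are the 10 mRNA export complex genes HPR1, TEX1, UAP56A, UAP56B, ALY1, ALY2, ALY3, ALY4, SAC3B and THP1 of Arabidopsis thaliana. They were chosen by gene identifier, are 10 of the 32833 genes in the count table, and all 10 were among the 22427 genes with enough counts to be tested. RNA of whole seedlings, 9 days old, was sequenced from 8 genotypes with 2 libraries each. The genotypes were the triple mutant nup50c nup82 nup136, the double mutants nup82 nup136, nup50c nup136 and nup50c nup82, the single mutants nup136, nup82 and nup50c, and wild type (WT, Col-0). All seedlings grew on 1/2 MS medium with sucrose and received no treatment. The labels name no allele and no insertion site for any mutant, and whether 2 libraries with 1 genotype are separate cultures is not stated. The p-values therefore measure the spread between these libraries, which may be technical. NUP136, NUP82 and NUP50C encode nucleoporins of the nuclear basket, the fibrous structure on the nucleoplasmic face of the nuclear pore.

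mRNA leaves the nucleus as a ribonucleoprotein that is packaged while it is still being made. In the TREX complex, the THO core travels with RNA polymerase, the DEAD-box helicase UAP56 is brought to the transcript, and ALY proteins bind the RNA as adaptors for the export receptors. TREX-2, built on a SAC3 scaffold with THP1, links transcribing genes to the nuclear basket, and in Arabidopsis THP1 binds the basket nucleoporin NUP136, also called NUP1. Arabidopsis has 2 UAP56 genes and 4 ALY genes.

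The 2 UAP56 genes lie close together on the forward strand of chromosome 5, with 10155 bases and 3 genes between them. UAP56A (AT5G11170) spans chr5:3553096-3557018 and UAP56B (AT5G11200) spans chr5:3567174-3571039 on TAIR10. Over 1284 aligned coding bases they were 97.2% identical, and the deposited annotation gives both the same protein entry, DEAD-box helicase 15. The coding stretches below, from the RefSeq TAIR10.1 genome, are shown because their 7 differences, in capitals, separate reads of the 2 genes. They lie at chr5:3556479-3556538 in UAP56A and chr5:3570520-3570579 in UAP56B, both on the forward strand.
UAP56A: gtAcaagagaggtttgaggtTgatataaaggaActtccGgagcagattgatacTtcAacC
UAP56B: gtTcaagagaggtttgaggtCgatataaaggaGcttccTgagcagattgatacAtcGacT
Of the 1628 windows of 150 bases in the UAP56A mRNA, 27 (1.66%) also occurred in the UAP56B mRNA. How the authors counted reads with several alignments is not given in the sources used here, so the split between the 2 genes is uncertain by the reads that fall wholly in such windows. No window of 150 bases was shared between any of the 6 pairs of ALY genes.

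The likeness of the 2 helicase genes extended upstream of their annotated starts. The windows of 250 bases before each start are shown because the 2 genes had the most alike levels across libraries (Pearson r = 0.984). They lie at chr5:3552846-3553095 for UAP56A and chr5:3566924-3567173 for UAP56B on the forward strand, and capitals mark the letters TGGGCC or TGGGCT on either strand, the core of the site II motif of plant promoters.
UAP56A promoter: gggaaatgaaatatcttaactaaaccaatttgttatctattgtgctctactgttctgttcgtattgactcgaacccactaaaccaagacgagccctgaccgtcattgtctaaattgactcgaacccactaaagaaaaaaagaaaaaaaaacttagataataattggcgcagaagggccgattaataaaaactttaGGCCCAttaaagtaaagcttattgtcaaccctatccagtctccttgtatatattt
UAP56B promoter: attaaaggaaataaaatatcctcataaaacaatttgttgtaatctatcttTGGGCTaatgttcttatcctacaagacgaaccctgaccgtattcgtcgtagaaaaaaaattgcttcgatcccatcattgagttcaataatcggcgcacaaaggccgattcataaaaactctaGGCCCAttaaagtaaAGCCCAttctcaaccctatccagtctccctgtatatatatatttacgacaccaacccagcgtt
A local alignment paired 207 bases of these windows, of which 83.6% were identical, with a score of 95.5 (match 1, mismatch -1). The next highest score among the pairs of promoters of the 10 genes was 16.5, for TEX1 and ALY3. Both UAP56 windows held the GGCCCA copy, 49 bases before the start in UAP56A and 72 bases before it in UAP56B. Site II letters occurred in the windows of 6 of the 10 genes, HPR1, UAP56A, UAP56B, ALY2, SAC3B and THP1, against 19.2% of 27443 protein-coding genes. The telo-box letters AAACCCTA occurred in 0 of the 10 windows, against 4.49% of all windows. These matches describe letters only. ALY1 and ALY4, which rose beside the helicase genes, held neither motif in these windows. HPR1 and ALY2, which did not differ between the genotypes by the test, held site II letters. So did 35.7% of the windows of the 28 other export genes listed below. The part of these letters in the levels was not tested.

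Total counts were 37923632 to 46194172 per library. Levels are given in RPKM, TMM-scaled CPM (counts relative to library size) divided by gene length in kilobases, and fold changes as log2 ± standard error from edgeR's quasi-likelihood test. P-values are Benjamini-Hochberg adjusted over all 22427 genes, and a gene is said to have risen or fallen where that value was under 0.05. NUP50C was lower than in WT in all 4 genotypes labelled nup50c, and NUP136 in all 4 labelled nup136. NUP136 stood at 7.02 and 4.84 RPKM in the libraries labelled nup82 nup136, against 10.2 and 9.69 RPKM in WT. NUP82 fell in the nup82 single mutant (8.15 and 8.06 RPKM, against 11.1 and 13.1 RPKM in WT, adjusted p = 0.00563), a call lost without WT replicate 2 and without either nup82 library. It did not pass the test in the libraries labelled nup50c nup82 nup136 (13.8 and 14.1 RPKM, adjusted p = 0.124), nup82 nup136 (10.9 and 9.76 RPKM, adjusted p = 0.150) and nup50c nup82 (11.7 and 10.1 RPKM, adjusted p = 0.614). These 3 genotypes are therefore called by their labels, and every direction that involves nup82 in them rests on the labels.

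**Figure D1:**
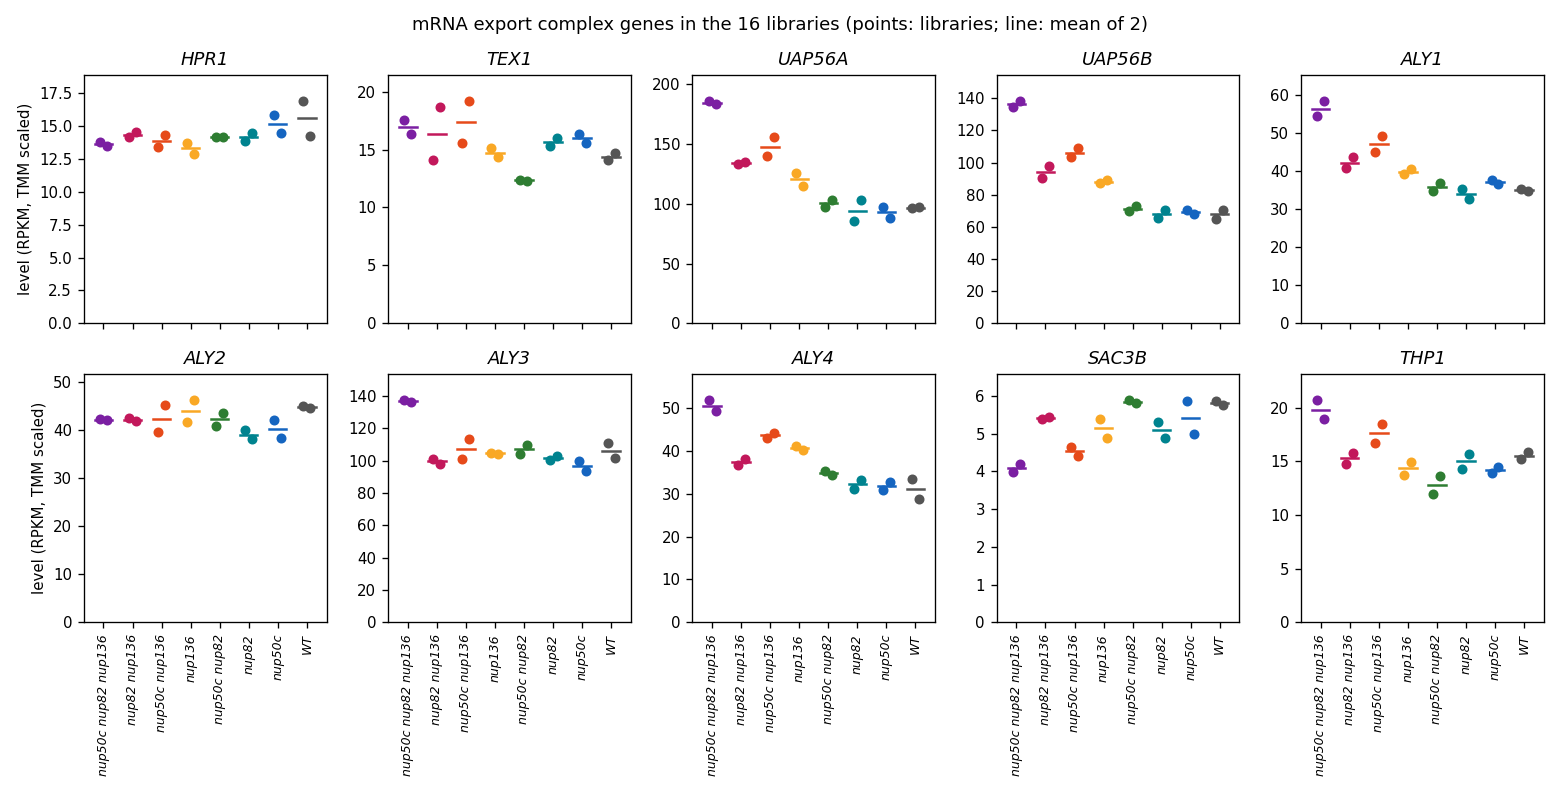
Level of each of the 10 genes (RPKM, y axis from 0) in the 16 libraries, by labelled genotype; points are libraries and lines are means of 2. UAP56A reached 186 and 183 RPKM in the labelled triple mutant, against 96.1 and 97.3 RPKM in WT, while ALY2 lay between 38.1 and 46.2 RPKM in all libraries.

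The 10 genes spanned a wide range of levels in WT. ALY3 (111 and 102 RPKM) and UAP56A (96.1 and 97.3 RPKM) were the most abundant per length. UAP56B (65.0 and 70.7 RPKM), ALY2 (45.0 and 44.5 RPKM), ALY1 (35.4 and 34.9 RPKM) and ALY4 (33.5 and 28.7 RPKM) followed, with no overlap between neighbours in this order. HPR1 (16.9 and 14.3 RPKM), THP1 (15.2 and 15.8 RPKM) and TEX1 (14.1 and 14.7 RPKM) came next, and the ranges of THP1 and TEX1 both overlapped that of HPR1. SAC3B was the lowest at 5.87 and 5.76 RPKM.

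Across the 8 genotypes, 8 of the 10 genes differed somewhere, where 57.1% of all tested genes did. The 2 that did not pass were HPR1 (adjusted p = 0.368) and ALY2 (adjusted p = 0.463). TEX1 passed with an adjusted p of 0.0358. In the seedlings labelled with nup136, the helicase genes and the adaptor genes ALY1 and ALY4 were higher. Their levels peaked in the labelled triple mutant, where ALY3 and THP1 were higher too and SAC3B was lower. In bulk seedlings, a change in the number of cells of a type and a change in RNA per cell cannot be told apart.

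The labelled triple mutant, set against WT, asks what the seedlings look like when all 3 basket genes carry mutations. Here 6 of the 10 genes rose and 1 fell, where 47.6% of all tested genes passed the test, 23.3% higher and 24.3% lower. The median log2 fold change of the 10 genes was 0.36, against -3.8e-05 for all tested genes, and the median absolute change was 0.44, against 0.39 for all tested genes. The helicase genes had the largest changes of the 10. UAP56A, at 186 and 183 RPKM in the labelled triple mutant against 96.1 and 97.3 RPKM in WT, rose by 0.93 ± 0.08 (1.91-fold, adjusted p = 1.5e-09). UAP56B, at 134 and 138 RPKM against 65.0 and 70.7 RPKM in WT, rose by 1.01 ± 0.07 (2.01-fold, adjusted p = 3.69e-11). For both genes the 2 mutant libraries were the highest of all 16.

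Of the 4 ALY adaptor genes, 3 rose in the labelled triple mutant. ALY1 (AT5G59950, chr5:24139939-24141937) had 54.5 and 58.4 RPKM against 35.4 and 34.9 RPKM in WT, and rose by 0.68 ± 0.08 (adjusted p = 1.03e-07). ALY4 (AT5G37720, chr5:14981619-14984730) had 51.8 and 49.2 RPKM against 33.5 and 28.7 RPKM in WT, and rose by 0.70 ± 0.09 (adjusted p = 2.17e-07). ALY3 (AT1G66260, chr1:24695637-24698914), the most abundant ALY gene, rose by 0.37 ± 0.07 (adjusted p = 0.000247). Its libraries held 137 and 136 RPKM, above 111 and 102 RPKM in WT. ALY2 (AT5G02530, chr5:564085-565925) had 42.3 and 42.0 RPKM against 45.0 and 44.5 RPKM in WT, a log2 difference of -0.09 with a 95% interval of -0.26 to 0.09. The difference did not pass the test (adjusted p = 0.423). The 2 groups of ALY2 libraries did not overlap, but the share of all tested genes for which this held is not given.

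Of the THO core genes, neither passed the test in the labelled triple mutant. HPR1 (AT5G09860, chr5:3066562-3070989), a large scaffold subunit of THO, had 13.8 and 13.5 RPKM against 16.9 and 14.3 RPKM in WT (log2 difference -0.20 ± 0.10, adjusted p = 0.0973). Without WT replicate 2 that difference was -0.31 and passed the test (adjusted p = 0.0321). TEX1 (AT5G56130, chr5:22722482-22725099), a WD-repeat subunit that also acts in trans-acting small RNA production in Arabidopsis, had 17.5 and 16.4 RPKM against 14.1 and 14.7 RPKM in WT. Its log2 difference of 0.23 had a 95% interval of -0.03 to 0.50.

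The TREX-2 genes moved apart in the labelled triple mutant. SAC3B (AT3G06290, chr3:1898877-1907448), the scaffold, had 3.97 and 4.18 RPKM against 5.87 and 5.76 RPKM in WT, and fell by 0.51 ± 0.10 on the log2 scale (adjusted p = 0.000166). THP1 (AT2G19560, chr2:8465690-8469145), its PCI-domain partner, had 20.7 and 19.0 RPKM against 15.2 and 15.8 RPKM in WT, and rose by 0.35 ± 0.11 (adjusted p = 0.00738). The groups did not overlap for either gene, but the share of all tested genes for which this held is not given. The THP1 call was lost without WT replicate 1 (adjusted p = 0.0607) and without replicate 1 of the labelled triple mutant (adjusted p = 0.0846).

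**Figure D2:**
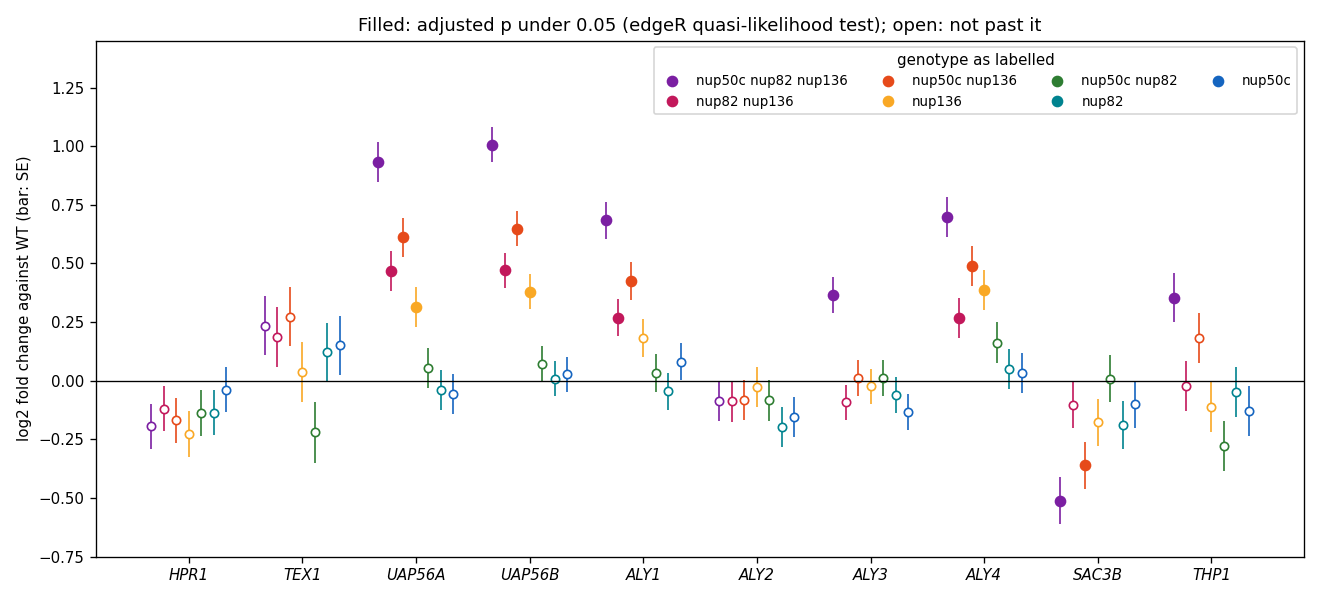
Log2 fold change against WT of each gene in the 7 mutant genotypes as labelled, with bars of 1 standard error; filled points had an adjusted p under 0.05. The largest rise was 1.01 for UAP56B in the labelled triple mutant and the largest fall was 0.51 for SAC3B in the same genotype; the single mutants nup82 and nup50c and the labelled nup50c nup82 double mutant have no filled point.

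Organ markers moved with the labelled triple mutant. The summed level of 5 green shoot markers was 13767 and 13385 CPM, against 18251 and 19576 CPM in WT, and all 5 fell. The 5 root markers summed to 2595 and 2657 CPM, against 2994 and 2931 CPM in WT, but nearly all of that sum is PYK10, which did not pass the test (log2 difference -0.16), nor did SHR (-0.29). The other root markers went both ways: CASP1 (9.85 and 9.27 CPM, against 28.5 and 29.2 CPM in WT) and PLT1 (2.40 and 2.20 CPM, against 6.51 and 6.49 CPM in WT) fell, while WOX5 (3.34 and 3.74 CPM, against 1.36 and 1.49 CPM in WT) rose. All 10 of these markers were detected in every library. The 3 seed storage markers summed to 34.1 and 26.6 CPM in the labelled triple mutant and to 40.4 and 92.6 in the labelled nup82 nup136 double mutant, against 0 and 1.22 in WT; no library of the other 5 mutant genotypes was above 0.382. Of the 3 flower and pollen markers, which summed to 2.38 and 2.98 CPM in the labelled triple mutant against 0.656 and 0.213 CPM in WT, AP3 alone rose (2.28 and 2.89 CPM, against 0.430 and 0.106 CPM in WT). AG had 0.0961 and 0.0918 CPM, against 0.226 and 0.106 CPM in WT, and the pollen gene VGD1 was at 0 in all 16 libraries. The part of these markers in the results was not tested.

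In the labelled nup82 nup136 double mutant, set against WT, 4 of the 10 genes rose and 0 fell, where 19.3% of all tested genes passed, 7.95% higher and 11.3% lower. UAP56A, at 133 and 135 RPKM against 96.1 and 97.3 RPKM in WT, rose by 0.47 ± 0.08 (adjusted p = 0.000221). UAP56B, at 90.1 and 98.0 RPKM against 65.0 and 70.7 RPKM in WT, rose by 0.47 ± 0.07 (adjusted p = 4.39e-05). These rises were 1.38-fold and 1.39-fold. The adaptor calls were close to the threshold. ALY1 (40.9 and 43.7 RPKM, against 35.4 and 34.9 RPKM in WT) rose by 0.27 ± 0.08 (adjusted p = 0.0182) and ALY4 (36.7 and 38.1 RPKM, against 33.5 and 28.7 RPKM in WT) by 0.27 ± 0.09 (adjusted p = 0.0293). Both calls were lost when the fit held just these 2 genotypes, without WT replicate 2 and without replicate 2 of the double mutant, which each left 2 of the 10 genes, and the ALY1 call was also lost without WT replicate 1 (adjusted p = 0.0854). SAC3B had 5.39 and 5.44 RPKM, a log2 difference from WT of -0.10 with a 95% interval of -0.31 to 0.10. THP1 had 14.7 and 15.8 RPKM, a log2 difference of -0.02 with a 95% interval of -0.24 to 0.20. The log2 differences of HPR1, ALY2, ALY3 and TEX1, none past the test, ran from -0.12 (HPR1) to 0.19 (TEX1).

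In the nup50c nup136 double mutant, 4 of the 10 genes rose and 1 fell relative to WT, where 24.7% of all tested genes passed, 11.7% higher and 13.1% lower. UAP56A, at 140 and 156 RPKM against 96.1 and 97.3 RPKM in WT, rose by 0.61 ± 0.08 (1.53-fold, adjusted p = 5.91e-06). UAP56B, at 103 and 109 RPKM against 65.0 and 70.7 RPKM in WT, rose by 0.65 ± 0.07 (1.57-fold, adjusted p = 3.97e-07). The adaptor genes ALY1 and ALY4 rose in the same libraries. ALY1 had 45.0 and 49.3 RPKM against 35.4 and 34.9 RPKM in WT, a rise of 0.42 ± 0.08 (adjusted p = 0.000254). ALY4 had 43.0 and 44.2 RPKM against 33.5 and 28.7 RPKM in WT, a rise of 0.49 ± 0.09 (adjusted p = 0.000115). SAC3B was the gene that fell. It had 4.65 and 4.41 RPKM against 5.87 and 5.76 RPKM in WT, a log2 change of -0.36 ± 0.10 (adjusted p = 0.00958). That call was lost without WT replicate 1 (adjusted p = 0.0628) and without replicate 2 of the double mutant (adjusted p = 0.0821). The log2 differences of HPR1, ALY2, ALY3, THP1 and TEX1, none past the test, ran from -0.17 (HPR1) to 0.27 (TEX1).

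The nup136 single mutant showed the smallest set of calls among the genotypes labelled nup136. Of the 10 genes 3 rose and 0 fell relative to WT, where 14.4% of all tested genes passed, 6.56% higher and 7.83% lower. UAP56A, at 126 and 115 RPKM against 96.1 and 97.3 RPKM in WT, rose by 0.32 ± 0.08 (adjusted p = 0.0115). UAP56B, at 87.2 and 89.2 RPKM against 65.0 and 70.7 RPKM in WT, rose by 0.38 ± 0.07 (adjusted p = 0.000849). ALY4, at 41.1 and 40.3 RPKM against 33.5 and 28.7 RPKM in WT, rose by 0.39 ± 0.09 (adjusted p = 0.00254). ALY1 had 39.2 and 40.5 RPKM, above both WT libraries, but its difference of 0.18 did not pass the test (adjusted p = 0.136). HPR1, SAC3B, THP1, ALY2, ALY3 and TEX1 did not pass either, with log2 differences from -0.23 (HPR1) to 0.04 (TEX1). Without WT replicate 2, UAP56B alone of the 10 genes still passed, and the UAP56A call was also lost without WT replicate 1 (adjusted p = 0.0854) and without nup136 replicate 1 (adjusted p = 0.100).

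In the genotypes without nup136, edgeR's quasi-likelihood test called 0 of the 10 genes. The share of all tested genes called was 0.905% in the labelled nup50c nup82 double mutant, 1.39% in nup82 and 1.73% in nup50c. At an unadjusted p under 0.05 the 10 genes gave 1 in the labelled nup50c nup82 double mutant (THP1), 1 in nup82 (ALY2) and 0 in nup50c, and DESeq2 called 0 in each. The shares above are at the adjusted threshold, so the unadjusted counts cannot be set against them. THP1 stood at 11.9 and 13.6 RPKM in the labelled nup50c nup82 double mutant, against 15.2 and 15.8 RPKM in WT (log2 difference -0.28, adjusted p = 0.257). ALY2 stood at 39.9 and 38.1 RPKM in nup82, against 45.0 and 44.5 RPKM in WT (log2 difference -0.20, adjusted p = 0.306). For UAP56A, the 95% interval of the log2 difference from WT was -0.12 to 0.23 in the labelled nup50c nup82 double mutant, -0.21 to 0.13 in nup82 and -0.23 to 0.12 in nup50c.

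Setting each genotype labelled nup136 against the background of the same label without it gives the change that goes with the nup136 label in 4 backgrounds. NUP82 RNA was not equal within the pairs labelled nup82. It was higher by the test in the labelled triple mutant than in labelled nup50c nup82 (log2 difference 0.25 to 0.47 over the alternative fits). It was also higher in labelled nup82 nup136 than in nup82 (0.27 to 0.43). The first of these NUP82 calls was lost without nup50c nup82 replicate 2. The second was lost without either nup82 library and without nup82 nup136 replicate 1. The part of these differences in the changes below was not tested. In the nup50c nup82 background 7 of the 10 genes rose and 1 fell, where 46.3% of all tested genes passed, 22.3% higher and 24% lower. UAP56A rose by 0.88 ± 0.08 and UAP56B by 0.93 ± 0.07 there (adjusted p = 4.85e-09 and 1.53e-10). TEX1, which no comparison with WT called, rose by 0.46 ± 0.13 (adjusted p = 0.00474). Its libraries held 17.5 and 16.4 RPKM in the labelled triple mutant, against 12.4 and 12.3 RPKM in the labelled nup50c nup82 double mutant, which had the lowest TEX1 levels of the series. THP1, at 20.7 and 19.0 RPKM against 11.9 and 13.6 RPKM, rose by 0.63 ± 0.11 (adjusted p = 2.49e-05). SAC3B, at 3.97 and 4.18 RPKM against 5.89 and 5.81 RPKM, changed by -0.52 ± 0.10 (adjusted p = 0.000144). ALY1, ALY3 and ALY4 also rose, by 0.65, 0.35 and 0.54. HPR1 (-0.06) and ALY2 did not pass the test. All 8 calls held in each fit that left out 1 library.

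In the single-mutant backgrounds the calls were 5 and 3 genes. In the nup50c background 5 of the 10 genes rose and 0 fell, where 27% of all tested genes passed, 12.9% higher and 14.1% lower. UAP56A rose by 0.67 ± 0.08, UAP56B by 0.62 ± 0.07, ALY4 by 0.46 ± 0.08, ALY1 by 0.34 ± 0.08 and THP1 by 0.31 ± 0.11. Without nup50c nup136 replicate 2 the ALY1 and THP1 calls were lost, which left 3 genes. The THP1 call (adjusted p = 0.0303) was also lost without either nup50c library. SAC3B, HPR1, ALY2, TEX1 and ALY3 did not pass, with log2 differences from -0.26 (SAC3B) to 0.14 (ALY3). In the labelled nup82 background 3 of the 10 genes rose and 0 fell, where 21.5% of all tested genes passed, 8.92% higher and 12.6% lower. These were UAP56A, by 0.51 ± 0.08, UAP56B, by 0.46 ± 0.07, and ALY1, by 0.31 ± 0.08, and the ALY1 call was lost without nup82 replicate 2 (adjusted p = 0.0862). ALY4, at 36.7 and 38.1 RPKM against 31.2 and 33.2 RPKM in nup82, differed by 0.22 ± 0.09 (adjusted p = 0.0715). ALY3, HPR1, THP1, TEX1, SAC3B and ALY2 did not pass, with log2 differences from -0.03 (ALY3) to 0.11 (ALY2). The comparisons that share libraries are given side by side and are not independent of each other.

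**Figure D3:**
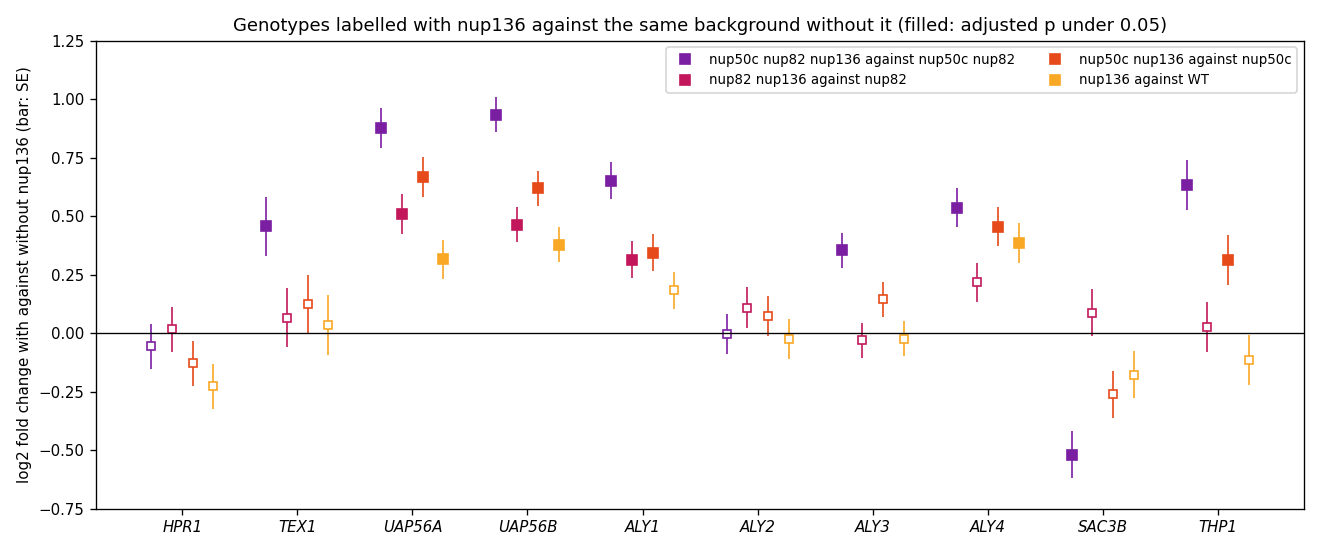
Log2 fold change of each gene between a genotype labelled with nup136 and the background of the same label without it, in 4 backgrounds. Bars are 1 standard error, and filled squares had an adjusted p under 0.05. UAP56A and UAP56B are filled in all 4 backgrounds, from 0.32 and 0.38 against WT to 0.88 and 0.93 against the labelled nup50c nup82 double mutant.

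The labelled triple mutant was also set against the double mutants that it contains. Its NUP136 was lower by the test than in the labelled nup82 nup136 double mutant (log2 difference -0.81 to -0.27 over the alternative fits). That NUP136 call was lost without nup82 nup136 replicate 1. NUP82 was higher in the labelled triple mutant than in that double mutant (0.35 to 0.52), a call kept in all 22 alternative fits. That pair therefore differed in NUP82 RNA besides NUP50C, and less firmly in NUP136 RNA. The part of this in the changes was not tested. Against the labelled nup82 nup136 double mutant, 6 of the 10 genes rose and 1 fell in the labelled triple mutant, where 29.8% of all tested genes passed, 14.9% higher and 14.9% lower. UAP56A, UAP56B, ALY1, ALY3 and ALY4 rose by 0.46, 0.53, 0.42, 0.46 and 0.43, each with a standard error of 0.07 or 0.08. SAC3B fell by 0.41 ± 0.10, and THP1 rose by 0.38 ± 0.11 with a call that was lost without replicate 1 of either genotype. HPR1, ALY2 and TEX1 did not pass, with log2 differences from -0.07 (HPR1) to 0.05 (TEX1). Against nup50c nup136, 4 of the 10 genes rose and 0 fell, where 22% of all tested genes passed, 10.1% higher and 11.9% lower. UAP56A rose by 0.32 ± 0.08, UAP56B by 0.36 ± 0.07, ALY3 by 0.35 ± 0.07 and ALY1 by 0.26 ± 0.08. SAC3B, TEX1, HPR1, ALY2, THP1 and ALY4 did not pass, with log2 differences from -0.15 (SAC3B) to 0.21 (ALY4). Without nup50c nup136 replicate 1 the UAP56A and ALY1 calls were lost, which left 2 genes, and the ALY1 call was also lost without replicate 2 of the labelled triple mutant. ALY3 was higher in the labelled triple mutant, at 137 and 136 RPKM, than in any other library, the next being 113 RPKM in nup50c nup136.

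A non-additive term asks whether the log2 change of a combined mutant departs from the sum of the changes of its parts. For all 3 mutations the parts are the single-mutant changes and the pairwise terms together. That term therefore does not set the labelled triple mutant against the sum of its single mutants, a comparison that was not tested. For the 10 genes edgeR's quasi-likelihood test called 0 such terms for nup50c by nup82, 0 for nup50c by nup136, 0 for nup82 by nup136 and 0 for the term of all 3 mutations. Over all tested genes the shares called were 4.78%, 5.17%, 8.77% and 9.55% in the same order. At an unadjusted p under 0.05 the 10 genes gave 3, 3, 0 and 1, and DESeq2 called 0 in each. The shares of all tested genes at that unadjusted threshold are not given, so these counts cannot be set against them. THP1 had the largest term for nup50c by nup136, at 0.43 ± 0.15 (adjusted p = 0.113). UAP56A had 0.35 ± 0.12 for the same pair (adjusted p = 0.0937), and passed the test when genes with low counts were kept (adjusted p = 0.0374). The term of TEX1 for nup50c by nup82 was -0.49 ± 0.18 (adjusted p = 0.127), and that of SAC3B for all 3 mutations was -0.52 ± 0.20 (adjusted p = 0.107). A value that misses the threshold does not show that the changes add up.

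With the 16 libraries split by label, 4 of the 10 genes were higher in all 8 libraries labelled nup136 than in all 8 without it, as were 3.03% of all tested genes. These were UAP56A (lowest 115 RPKM with nup136, highest 103 RPKM without), UAP56B (lowest 87.2 RPKM with, highest 72.9 RPKM without), ALY1 (39.2 RPKM with, 37.6 RPKM without) and ALY4 (36.7 RPKM with, 35.4 RPKM without). None of the 10 genes was lower in all 8, as were 4.03% of all tested genes. The same split set apart 2 of the 5 root markers. PYK10 and CASP1 were lower in all 8 libraries labelled nup136 than in all 8 others, while PLT1, SHR and WOX5 overlapped. The summed level of the 5 green shoot markers was also lower in all 8 libraries labelled nup136. Its highest value with nup136 was 16910.1 CPM (labelled nup82 nup136 replicate 2), and its lowest without was 17011.5 CPM (nup82 replicate 1). The part of these markers in the result was not tested.

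Ratios within a library set partners side by side. The ratio of UAP56A to UAP56B was 1.38 and 1.33 in the labelled triple mutant, against 1.48 and 1.38 in WT, and lay between 1.29 and 1.48 in all 16 libraries while their summed level ran from 151 to 321 RPKM. THP1 stood at 5.21 and 4.53 times the SAC3B level in the labelled triple mutant and at 3.60 and 4.19 times in nup50c nup136, against 2.58 and 2.75 times in WT. In the other libraries this ratio was between 2.02 and 3.21. ALY3 made up 48.0% and 47.7% of the summed ALY level in the labelled triple mutant, against 49.3% and 48.5% in WT. The ALY2 share was 14.8% and 14.7% in the labelled triple mutant, against 20.0% and 21.2% in WT, and no other library was below 17.3%.

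**Figure D4:**
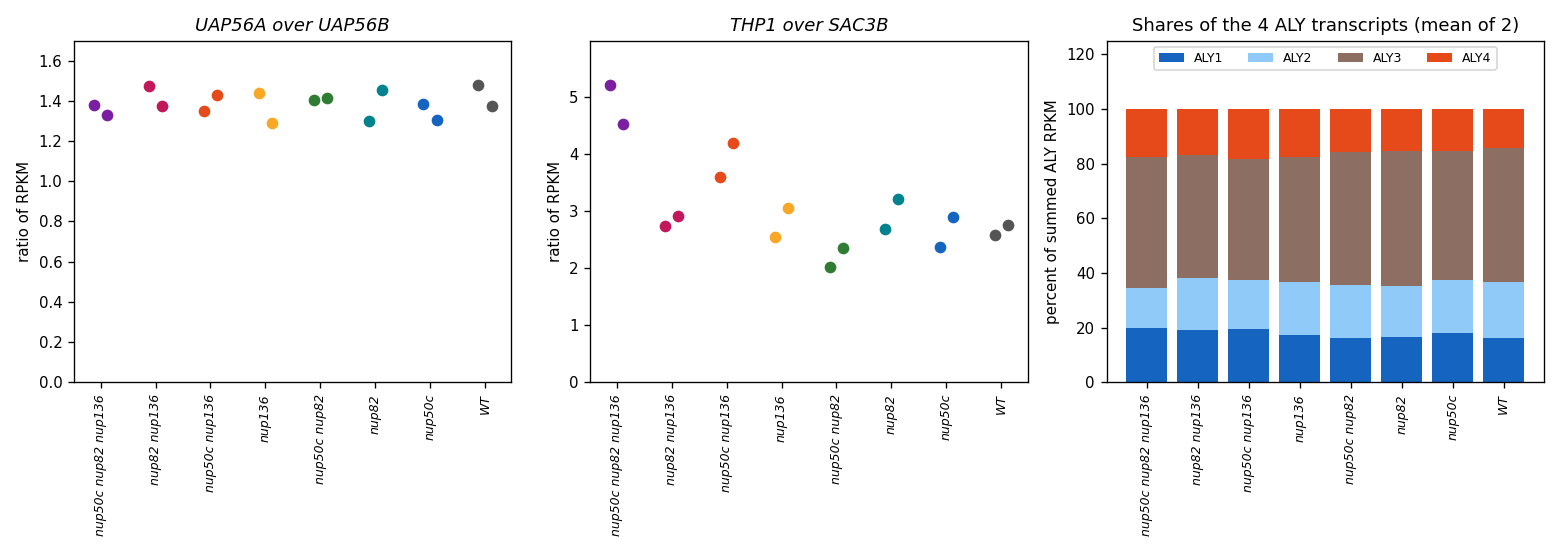
Ratio of UAP56A to UAP56B and of THP1 to SAC3B in each library (points, RPKM over RPKM) and mean share of each ALY gene in the summed ALY level (stacked bars, percent), by labelled genotype. The helicase ratio stays between 1.29 and 1.48, while the THP1 to SAC3B ratio is 3.60 or more in the 4 libraries of the labelled triple mutant and nup50c nup136 and at most 3.21 in the others.

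For each of the 10 genes, the tested gene whose log2 CPM followed it most closely over the 16 libraries is named here as a description, since libraries of a genotype share it. UAP56A and UAP56B were each other's closest gene out of all 22427 tested (Pearson r = 0.984). Their profile was shared widely: 456 tested genes had an r above 0.9 with UAP56A and 624 with UAP56B, as did 466 with ALY1 and 261 with ALY4. ALY1 was closest to AT1G43910, annotated as an AAA-ATPase (0.979), and ALY4 to AT3G43270, a probable pectinesterase (0.971). ALY3 was closest to AT5G08760, a precursor of a serine-rich endogenous peptide (0.965), SAC3B to AT4G07825 (0.940), THP1 to AT5G53540 (0.928) and TEX1 to RPA70D, a replication protein A subunit (0.923). HPR1 and ALY2, the 2 genes that did not differ between genotypes by the test, had the weakest closest matches, at 0.837 with the squalene epoxidase gene XF1 and 0.821 with AT1G51538.

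A list of 28 other genes of mRNA export, from the remaining THO and TREX-2 subunits to the helicase that strips export factors at the cytoplasmic face, shows the surroundings of the 10 genes. DSS1(V) had too few counts to be tested. Of the 27 tested genes, 15 (55.6%) differed between the genotypes, where 57.1% of all tested genes did. In the labelled triple mutant 9 rose and 2 fell relative to WT (40.7%, where 47.6% of all tested genes passed), with a median log2 change of 0.14. The largest rises were at the step of docking at the pore. NUP98B, one of a pair of genes for the FG-nucleoporin NUP98, had 18.8 and 17.5 RPKM against 2.94 and 2.64 RPKM in WT and rose by 2.70 ± 0.14. RAE1, the NUP98-binding export factor, had 64.5 and 61.3 RPKM against 20.6 and 19.3 RPKM in WT and rose by 1.66 ± 0.09. NUP98A, the other copy, had 17.3 and 17.7 RPKM against 20.9 and 19.9 RPKM in WT, a log2 difference of -0.22 that did not pass the test.

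At the other steps, the log2 changes that passed in the labelled triple mutant ran from -1.62 to 0.78. LOS4, the DEAD-box helicase of the cytoplasmic face, rose by 0.78 ± 0.08 and GLE1, known in yeast as its activator, by 0.29 ± 0.10. Of the exon junction complex, EIF4A-III rose by 0.27 ± 0.08 and MAGO by 0.24 ± 0.08, while Y14 did not pass. THO5A (AT1G45233, by the deposited description, with THO5 as the symbol of both it and THO5B, AT5G42920) was the 1 of 6 further THO genes that rose (0.66 ± 0.13), and AT4G23910 the 1 of 3 further TREX partners (0.48 ± 0.12). The remaining TREX-2 genes went both ways, as SAC3B and THP1 did. The centrin gene CEN2 (AT4G37010), at 5.36 and 5.63 RPKM against 19.0 and 14.8 RPKM in WT, fell by 1.62 ± 0.16 on the log2 scale. SAC3A fell by 0.61 ± 0.11, while the centrin gene CEN1 (AT3G50360) rose by 0.36 ± 0.10. CEN2 is the deposited symbol of both centrin genes. Neither cap-binding gene, CBP20 or CBP80, passed the test. Leaving out 1 library of either genotype ended the calls of MAGO (any of the 4), GLE1 (WT replicate 1 or either mutant library), EIF4A-III (WT replicate 1), AT4G23910 (mutant replicate 1) and CEN1 (mutant replicate 2).

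Against WT, 11.1% of the 27 genes passed the test in the labelled nup82 nup136 double mutant, 14.8% in nup50c nup136 and 18.5% in nup136, where 19.3%, 24.7% and 14.4% of all tested genes did. In the labelled nup82 nup136 double mutant the genes that rose were NUP98B (1.82 ± 0.14) and RAE1 (0.94 ± 0.09), and CEN2 fell by 1.39 ± 0.16. In nup50c nup136 the genes that rose were NUP98B (1.84 ± 0.14), RAE1 (1.13 ± 0.09) and LOS4 (0.44 ± 0.08), and CEN2 fell by 1.35 ± 0.16. In the nup136 single mutant NUP98B (0.99 ± 0.14), Y14 (0.24 ± 0.07) and MOS11, an RNA-binding TREX partner (0.24 ± 0.07), rose, while CEN2 fell by 0.54 ± 0.16 and the basket protein gene NUA by 0.25 ± 0.08. Of these nup136 calls, NUP98B alone held in every fit that left out 1 library. Over 22 alternative fits the NUA call was lost in 13, those of Y14 and MOS11 in 4 each and that of CEN2 in 2. The count of 5 went down to 1 without WT replicate 1, 3 without WT replicate 2, 2 without nup136 replicate 2 and 2 when the fit held just these 2 genotypes. In the labelled nup82 nup136 double mutant the count of 3 was 6 with library totals as the only scaling and 5 with DESeq2. In the 3 genotypes without nup136 edgeR's quasi-likelihood test called 0 of the 27 genes, with 1 at an unadjusted p under 0.05 in each and 0 by DESeq2. The share of all tested genes at that unadjusted threshold is not given. LOS4 and NUP98B were higher in all 8 libraries labelled nup136 than in the 8 others, as were 3.03% of all tested genes. CEN2 alone of the 27 was lower in all 8, as were 4.03% of all tested genes.

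**Figure D5:**
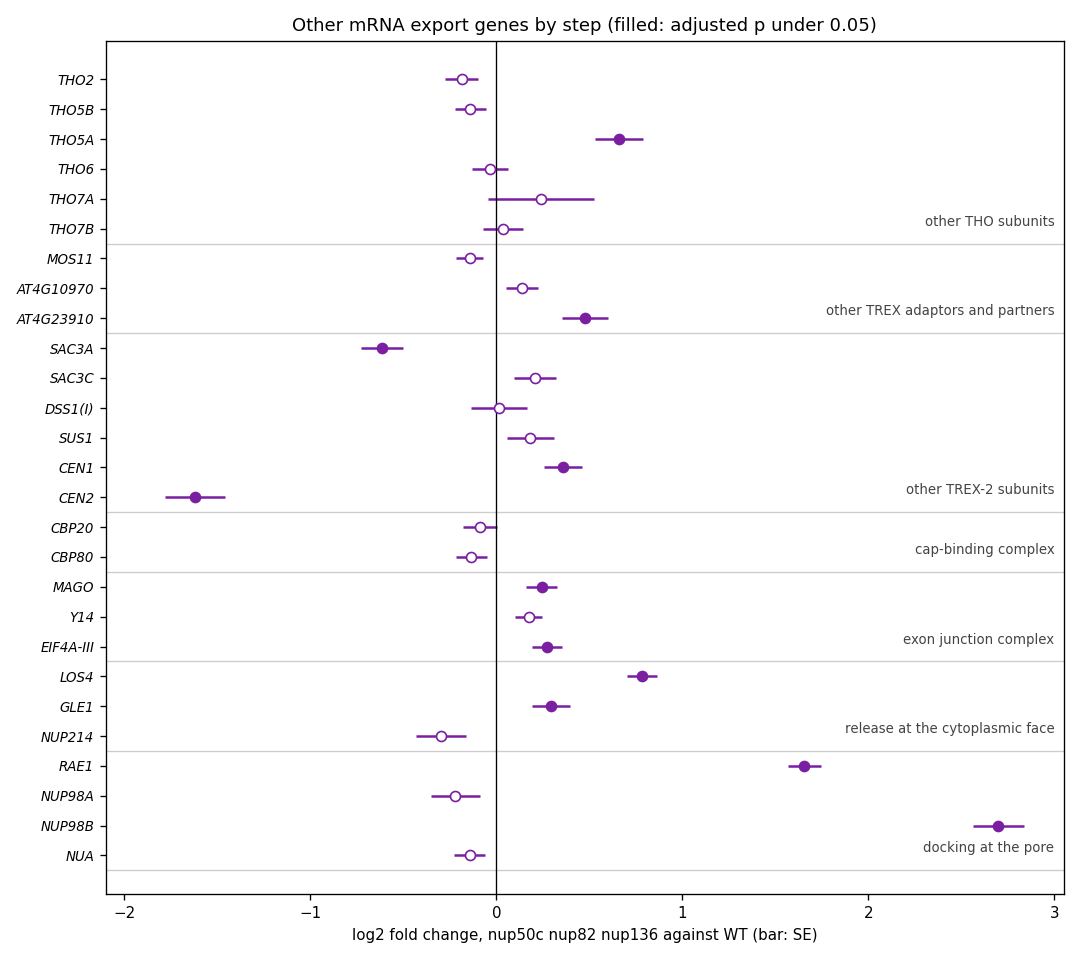
Log2 fold change between the labelled triple mutant and WT (x axis, bars of 1 standard error) for the 27 tested genes of the wider export list, grouped by step; filled points had an adjusted p under 0.05. NUP98B (2.70) and RAE1 (1.66) lie farthest to the right and CEN2 (-1.62) farthest to the left.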

How the data were processed

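Strand-specific mRNA libraries of whole Arabidopsis seedlings, 2 for each of 8 genotypes, were analysed from the counts per gene deposited by the authors. The submitters' processing notes list HISAT2 2.0.4, HTSeq 0.6.1p1 and the build TAIR10. How strand and multiply aligned reads were handled is not given in the sources used here. The deposited FPKM values of the authors served as a check: the RPKM levels computed here were 1.00 to 1.01 times as high for the 10 genes.

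Counts were scaled by TMM and filtered by filterByExpr with a minimum count of 10. All 16 libraries entered 1 edgeR 4.0.16 quasi-likelihood fit (R 4.3.3) with 1 coefficient per genotype and 8 residual degrees of freedom, without a replicate block. Benjamini-Hochberg adjustment covered 22427 genes with a threshold of 0.05, and intervals are at 95%. The procedure was tested on simulated data. Total counts of 37923632 to 46194172 put at least 585 counts behind each value of the 10 genes.

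Alternatives were DESeq2 1.42.0 (test and size factors), library totals as scaling, no low-count filter, a replicate block, fits of 2 genotypes and each library left out. Sequences were read from the RefSeq TAIR10.1 genome with Biopython 1.88; 32531 of 32547 matched nuclear genes have the same position in the count table, all those named here included.

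All 10 genes were tested in every comparison, and those that did not pass are given mostly by their range. Other export genes are named where they passed the test against WT, as are the 3 mutated genes and the closest gene of each of the 10. AT4G10970, NUP98A, CBP20, CBP80 and DSS1(V) fall outside this rule and were chosen after their values were seen. Genes and lists were chosen with earlier results of these data known. The labels give no batch.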

Additional observations from a re-analysis of the deposited data

Results flagged for a closer look

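In a non-additive term the log2 change of a combined mutant departs from the sum of its parts. For all 3 mutations these parts include the pairwise terms. Such terms passed edgeR's quasi-likelihood test for 5 of the 27 other export genes tested and for 0 of the 10 mRNA export complex genes. By term, 3.7% of the 27 passed for nup50c by nup82, 11.1% for nup50c by nup136, 11.1% for nup82 by nup136 and 3.7% for all 3 mutations, where 4.78%, 5.17%, 8.77% and 9.55% of all tested genes did. The nup82 mutation by label and nup136 together gave 0.96 ± 0.19 for NUP98B (adjusted p = 0.00159), 0.82 ± 0.13 for RAE1 (adjusted p = 9.59e-05) and -1.04 ± 0.22 for CEN2 (adjusted p = 0.00296). The pair nup50c and nup136 gave 0.73 ± 0.19 for NUP98B (adjusted p = 0.0205), 0.79 ± 0.13 for RAE1 (adjusted p = 0.000165) and -0.79 ± 0.22 for CEN2 (adjusted p = 0.0325). In both doubles the terms were above 0 for NUP98B and RAE1 and below 0 for CEN2. For nup50c by nup136, the NUP98B call was lost when any 1 of 4 libraries was left out, and the CEN2 call when any 1 of 5 was.

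The nup50c by nup82 term of AT4G10970 was 0.54 ± 0.12 (adjusted p = 0.00796), and it was lost without WT replicate 1 (adjusted p = 0.0512). Its level was 21.4 and 21.3 RPKM in the labelled nup50c nup82 double mutant, 17.2 and 16.6 RPKM in nup82 and 17.1 and 16.9 RPKM in nup50c, against 20.3 and 18.9 RPKM in WT. The term of all 3 mutations for SAC3A was -0.81 ± 0.22 (adjusted p = 0.0215), and leaving out any of 8 libraries ended that call. SAC3A, a TREX-2 scaffold gene beside SAC3B, had 8.17 and 8.73 RPKM in the labelled triple mutant, against 11.8 and 14.1 RPKM in WT.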

How the results depend on the processing

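Over the 160 values of the 10 genes (10 genes in 12 pairwise comparisons and 4 non-additive terms), 3447 of 3480 alternative values kept their side of the threshold, 25 lost a call and 8 gained one. The sign differed for 118, each past the threshold in neither fit. The count of genes called in the labelled nup82 nup136 double mutant against WT was 2 in a fit of only the 2 genotypes, against 4, and the nup50c by nup136 term gave 1 (UAP56A) without the low-count filter, against 0. The causes were not tested, beyond the fewer libraries of the first.

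Leaving out 1 library at a time, the number of the 10 genes called against WT was 6 to 8 in the labelled triple mutant, 2 to 4 in the labelled nup82 nup136 double mutant, 4 to 5 in nup50c nup136, 1 to 3 in nup136 and 0 throughout in the 3 genotypes without nup136. Against the background without nup136 it was 8 throughout in the labelled triple mutant, 2 to 3 in the labelled nup82 nup136 double mutant and 3 to 6 in nup50c nup136. In the labelled triple mutant it was 6 to 7 against the labelled nup82 nup136 double mutant and 2 to 4 against nup50c nup136. The non-additive terms gave 0 throughout, and 7 to 8 genes differed between genotypes.

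The replicate numbers did not pair the libraries: over 28 pairs of genotypes the correlation of replicate differences was -0.06 to 0.05, and none was above 0.1. With the replicate number as a block the labelled triple mutant again had 7 calls against WT, and nup50c nup136 against nup50c had 6 in place of 5, SAC3B being added (adjusted p = 0.0479). Other scalings moved the median of all genes by at most 0.05 on the log2 scale. With 2 libraries per genotype, standard errors in the pairwise comparisons were 0.07 to 0.13 on the log2 scale. The standard errors printed for the non-additive terms of THP1, TEX1 and SAC3B were above this range. Both limit which small differences of the 10 genes could be detected.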
